A study of Mus musculus with 10 samples.

Results

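The genes examined here encode subunits of the GABA-A receptor outside the alpha class: Gabrb1 and Gabrb2 (beta), Gabrg1 and Gabrg3 (gamma) and Gabrd (delta). They were taken by symbol, through their Ensembl gene IDs, from the table of raw counts, and all 5 were found among its 29883 genes. The rule used no measured value, but the members were chosen with earlier results of these data known. The counts came from RNA-seq of the nucleus accumbens (NAc) of ethanol-naive male mice of 9 weeks, 5 of the inbred strain C57BL/6J (B6) and 5 of DBA/2J (D2), with 1 library per mouse and no treatment. The comparison addresses basal differences between the strains. Neither strain carries a transgene. The strain is itself the contrast, so a difference could lie anywhere among the many loci at which the strains differ, and reads of both strains were aligned to the B6 genome.

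The GABA-A receptor is a pentameric chloride channel opened by GABA, the main inhibitory transmitter of the brain. Alpha and beta subunits meet to form the GABA sites, and the remaining place is commonly filled by a gamma or by the delta subunit. Gamma-containing receptors can lie at synapses and carry the benzodiazepine site where alpha and gamma meet, whereas delta-containing receptors lie mostly outside synapses, respond to low ambient GABA and are sensitive to neurosteroids. In the NAc most neurons are themselves GABAergic projection neurons, so these receptors set the inhibition of cells that in turn inhibit.

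Most of the subunit genes lie in clusters. On GRCm39, Gabrg1 (ENSMUSG00000001260) lay on chromosome 5 from 70906506 to 70999960 on the minus strand, and Gabrb1 (ENSMUSG00000029212) on the same chromosome from 71815456 to 72319431 on the plus strand. Between them lay the alpha genes Gabra2 and Gabra4. Gabrb2 (ENSMUSG00000007653) lay on chromosome 11 from 42310493 to 42523417 on the plus strand, in a cluster that also holds Gabra6. Gabrg3 (ENSMUSG00000055026) lay on chromosome 7 from 56366213 to 57036936 on the minus strand, 18.2 kb from Gabra5. Gabrd (ENSMUSG00000029054) stood apart from the clusters, on chromosome 4 from 155469407 to 155482872 on the minus strand, and at 13.5 kb was the shortest of the 5, against 671 kb for Gabrg3.

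Promoter sequences show how differently the genes begin, and are printed for that reason. RefSeq promoter windows (table of build GRCm38.p6, found again by exact match in GRCm39) were at hand for 4 of the 5 genes, with 7 annotated starts in all. The 250 bases before each start were searched on both strands for TATAAA (the TATA box), TGACGTCA (the cAMP response element) and GCGCATGCG (the core of the NRF1 site), which occurred in 12.4%, 1.55% and 1.45% of 32851 such windows. The window of Gabrg1 had 35.6% G or C and 1 CpG, against medians of 52.4% and 6 over all windows, and held none of these motifs. The window of the upstream start of Gabrb1 had 64.4% G or C and 18 CpGs. Whole windows that overlap annotated exons are not printed. For Gabrg1 the full 250 bases before the start follow (chr5:70999961-71000210, minus strand). For Gabrg3 the 71 bases free of exons follow (chr7:57037143-57037213, minus strand), which end 179 bases before its start. The last lines give 30 bases around the NRF1 core of the downstream start of Gabrb1 (chr5:71857245-71857274, plus strand) and around the TATA box of a start of Gabrb2 (chr11:42311225-42311254, plus strand), with the motif in capitals. The NRF1 core also matched on the opposite strand, shifted by 1 base. The windows of both these starts held 0 bases free of annotated exons, so both printed stretches lie in annotated exons. The windows of the other starts, including the upstream start of Gabrb1 and the other starts of Gabrb2, held none of the motifs. A match of letters is a description and not a measured binding site.
Gabrg1: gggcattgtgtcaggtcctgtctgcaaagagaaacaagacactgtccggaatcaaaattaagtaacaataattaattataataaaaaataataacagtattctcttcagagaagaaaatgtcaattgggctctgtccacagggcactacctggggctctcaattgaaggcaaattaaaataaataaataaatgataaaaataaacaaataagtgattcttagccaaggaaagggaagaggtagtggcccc
Gabrg3: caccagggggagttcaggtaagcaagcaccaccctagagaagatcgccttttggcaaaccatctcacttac
Gabrb1: agtgagtaccctctGCGCATGCGcaggtcc
Gabrb2: tccccctcctgcTATAAAtagctggactag

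Depth lay between 96977262 and 116776714 counts per library, and the 5 genes had mean counts of 6220 (Gabrg1) to 21712 (Gabrb1), so counting error was small beside the differences between mice. Marker genes of striatal projection neurons were present in all 10 libraries, with Drd1, the D1 dopamine receptor, at 189 to 247 CPM (read counts relative to the total of the library), and their summed CPM was 5325 to 6747 in B6 and 4482 to 5382 in D2. Markers of cortical projection neurons were present too and very uneven. Their summed CPM over 10 genes was 249, 259, 1071, 334 and 1087 in B6 mice 1 to 5 and 389, 688, 759, 616 and 481 in D2 mice 1 to 5. B6 mice 3 and 5 thus stood apart from the other B6 mice, with Slc17a7, the vesicular glutamate transporter of cortical neurons, at 774 and 791 CPM against 57.2 to 130. This pair was noticed by its low Gabrg1 and Gabrq, so values without it are descriptions. The LFCs of the 5 genes are also given without this pair and with the cortical markers as a covariate, and the ratios without the pair. The share of mitochondrial counts did not overlap between the strains, at 4.61 to 4.97% in B6 and 3.84 to 4.02% in D2, and its part in the differences was not tested.

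Differences between strains were tested with edgeR's quasi-likelihood F test over all genes, and a gene is said to be called where its Benjamini-Hochberg adjusted p (padj) was under 0.05. Log2 fold changes (LFC) are D2 against B6, and CPM values are scaled between libraries by TMM. At this threshold 5478 of 29883 genes were called (18.3%), 2937 of them lower in D2 (9.83% of all genes). Of the 5 subunit genes only Gabrd was called, and it was lower in D2. Gabrb1, Gabrb2, Gabrg1 and Gabrg3 had positive LFCs that did not pass. In none of the 5 did the CPM of the strains fail to overlap, whereas this was so for 16.0% of all genes. By absolute LFC the 5 genes ranked between 13579 and 18413 of 29883.

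Gabrb1 encodes beta1, a subunit of lower sensitivity to the anesthetic etomidate than beta2. It had 216, 189, 184, 189 and 179 CPM in B6 mice 1 to 5 and 211, 207, 207, 227 and 193 CPM in D2 mice 1 to 5. D2 mouse 4 was above all B6 mice and 4 B6 mice were below all D2 mice, but B6 mouse 1 lay within the D2 range. The mean was 191 ± 14.2 CPM in B6 and 209 ± 12.0 CPM in D2 (SD, n = 5). The LFC of 0.13 (SE 0.054, 95% interval 0.0086 to 0.24) did not pass in the edgeR test (padj = 0.139). Without B6 mouse 1 the LFC was 0.17 and passed (edgeR padj = 0.0176). In the other 9 fits that left out a mouse Gabrb1 did not pass (edgeR padj up to 0.305).

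Gabrb2 encodes beta2, a subunit of receptors widespread in the brain. Its level was 164, 150, 127, 124 and 129 CPM in the B6 mice and 200, 129, 165, 156 and 164 CPM in the D2 mice. The strains overlapped broadly, with D2 mouse 1 the highest of all 10 mice and D2 mouse 2 among the low B6 mice. Means were 139 ± 17.3 CPM in B6 and 163 ± 25.4 CPM in D2, and the LFC of 0.23 (SE 0.11, 95% interval -0.0030 to 0.46) did not pass in the edgeR test (padj = 0.176). Without D2 mouse 2 the LFC was 0.30 and passed (edgeR padj = 0.0492). In the other 9 fits that left out a mouse Gabrb2 did not pass (edgeR padj up to 0.377).

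Gabrg1 encodes gamma1, whose receptors respond weakly to classical benzodiazepines and which is also made by some glial cells. It had 67.2, 58.6, 42.8, 53.2 and 40.3 CPM in the B6 mice and 70.8, 60.9, 54.4, 66.2 and 56.95 CPM in the D2 mice. B6 mice 3 and 5, those with high cortical markers, were the lowest of all 10, and the other B6 mice lay in or just below the D2 range. The means were 52.4 ± 11.1 CPM in B6 and 61.9 ± 6.71 CPM in D2, with an LFC of 0.24 (SE 0.13, 95% interval -0.036 to 0.51) that did not pass in the edgeR test (padj = 0.240). Without B6 mice 3 and 5 the LFC was 0.051. Gabrg1 was the most variable of the 5 in B6, with a coefficient of variation of 21.3%. In D2 its coefficient was 10.8%, below the 15.6% of Gabrb2.

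Gabrg3 encodes gamma3, the other gamma subunit among the 5 genes. It had 96.5, 78.7, 77.1, 86.9 and 77.6 CPM in the B6 mice and 93.9, 93.1, 84.8, 112 and 104 CPM in the D2 mice. D2 mice 4 and 5 were above all B6 mice and 3 B6 mice were below all D2 mice, with B6 mouse 1 the exception at the top of its strain. The means were 83.4 ± 8.38 CPM in B6 and 97.5 ± 10.5 CPM in D2. The LFC of 0.23 (SE 0.080, 95% interval 0.053 to 0.40) did not pass in the edgeR test (padj = 0.0704), whereas DESeq2, which called 22.1% of the genes it tested, called it (LFC 0.23, padj = 0.0433). It passed in edgeR without B6 mouse 1 (LFC 0.28, padj = 0.0178) and without D2 mouse 3 (LFC 0.27, padj = 0.0364). In the other 8 fits that left out a mouse Gabrg3 did not pass (edgeR padj up to 0.168).

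Gabrd encodes delta, the subunit that takes the place of gamma in receptors outside synapses. It had 97.9, 109, 107, 115 and 113 CPM in the B6 mice and 83.5, 92.9, 106, 83.1 and 98.1 CPM in the D2 mice. The sign was opposite to that of the other 4 genes, and 4 B6 mice were above all D2 mice and 3 D2 mice were below all B6 mice, while B6 mouse 1 lay below D2 mice 3 and 5. From B6, at 108.3 ± 6.59 CPM, to D2, at 92.7 ± 9.74 CPM, the mean decreased by 14.4% (LFC −0.22, SE 0.068, 95% interval −0.37 to −0.078, edgeR padj = 0.0358). In bulk tissue, fewer cells that make Gabrd and less Gabrd RNA per cell cannot be told apart. The summed markers of striatal projection neurons were also lower in D2, with 0 of 13 called higher and 8 of 13 called lower (median LFC −0.26), and their part in the result was not tested. The call was near the threshold: over the 10 fits that left out a mouse it held without B6 mouse 1 or 3 or D2 mouse 3 or 5 and was lost without any of the others (LFC −0.28 to −0.19, edgeR padj = 0.0075 to 0.089). It was also lost with libraries scaled by total counts (LFC −0.19, edgeR padj = 0.0589), where 18.3% of all genes were called, and the LFC was smallest, −0.10, with thalamus and septum markers as a covariate (edgeR padj = 0.341).

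**Figure D1:**
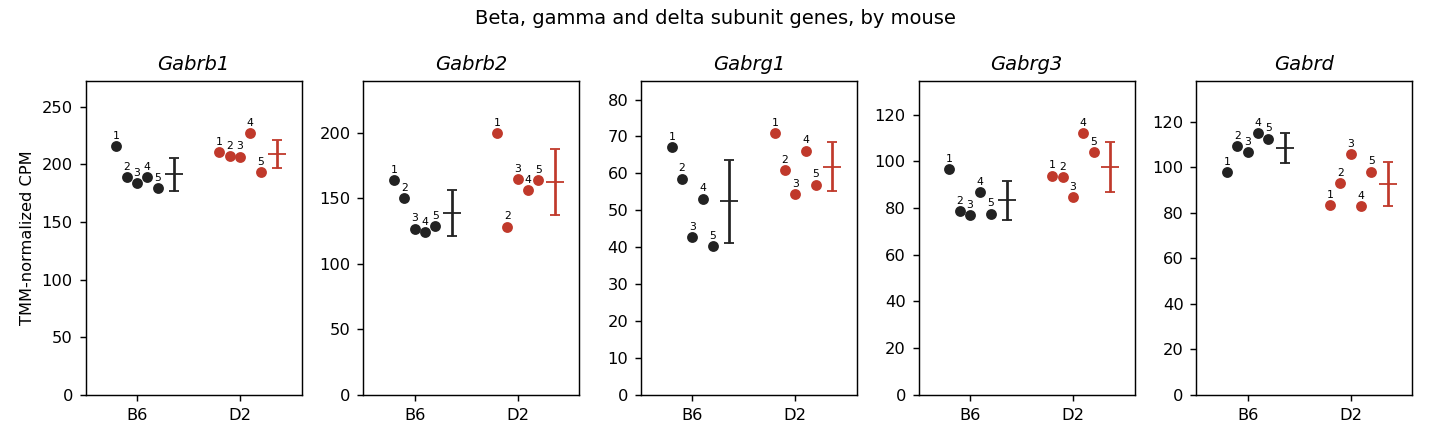
TMM-normalized CPM (y axis, from 0) of the 5 subunit genes in each B6 (black) and D2 (red) mouse, labelled by mouse number, with the strain mean and SD (n = 5) beside the points. In every panel the strains overlap, and Gabrd is the only gene with the lower mean in D2 (92.7 against 108.3 CPM).

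The within-strain spread of these genes was on the high side. The biological coefficient of variation fitted by edgeR was 0.070 for Gabrb1, 0.083 for Gabrd, 0.095 for Gabrg3, 0.12 for Gabrb2 and 0.14 for Gabrg1, against a median of 0.067 over 10645 genes with at least 1000 counts on average. Gabrb2 and Gabrg1 stood at the 91.7th and 94.5th percentile of these genes. Gabrb1 was near the middle, at the 57.3rd percentile.

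The calls moved with the cell type markers entered as a covariate. With the summed cortical markers as a covariate, all 5 subunit genes were called, against 26.3% of all genes in the same fit. Gabrg1 changed the most, to an LFC of 0.33 (SE 0.058, edgeR padj = 5.8e-04). The others had LFCs of 0.14 for Gabrb1 (padj = 0.0347), 0.26 for Gabrb2 (padj = 0.0261), 0.25 for Gabrg3 (padj = 0.0115) and −0.24 for Gabrd (padj = 0.0108). Of the 10 cortical marker genes none was called between the strains (their part in the results without the covariate was not tested). The calls differed with the markers entered. With the summed thalamus and septum markers in place of the cortical markers, none of the 5 was called, against 13.1% of all genes, and the LFCs of Gabrb2 and Gabrg1 were 0.0079 and 0.011. These markers summed to 151 to 177 CPM in B6 (mean 161) and 162 to 199 CPM in D2 (mean 180), with 1 of 9 called higher in D2. Their median LFC was 0.26, while the ranges of their sums overlapped between the strains. Whether this covariate itself differed with strain was not tested, and neither was its part in the lost calls. With astrocyte markers all 5 were called, against 25.3% of all genes, with LFCs of 0.17 for Gabrb1, 0.30 for Gabrb2, 0.42 for Gabrg1, 0.31 for Gabrg3 and −0.25 for Gabrd. Of the 9 astrocyte markers 1 was called higher and 3 lower in D2, with a median LFC of −0.062. The part of these marker differences in the added calls was not tested. Without B6 mice 3 and 5 none of the 5 was called, against 19.2% of all genes, and Gabrd had an LFC of −0.21 (edgeR padj = 0.0769). The LFCs of Gabrb1, Gabrb2, Gabrg1 and Gabrg3 were then 0.077, 0.15, 0.051 and 0.16 (edgeR padj = 0.415, 0.435, 0.767 and 0.248). The fits with thalamus and septum or astrocyte markers and the fit without the pair of B6 mice were chosen after seeing the data.

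**Figure D2:**
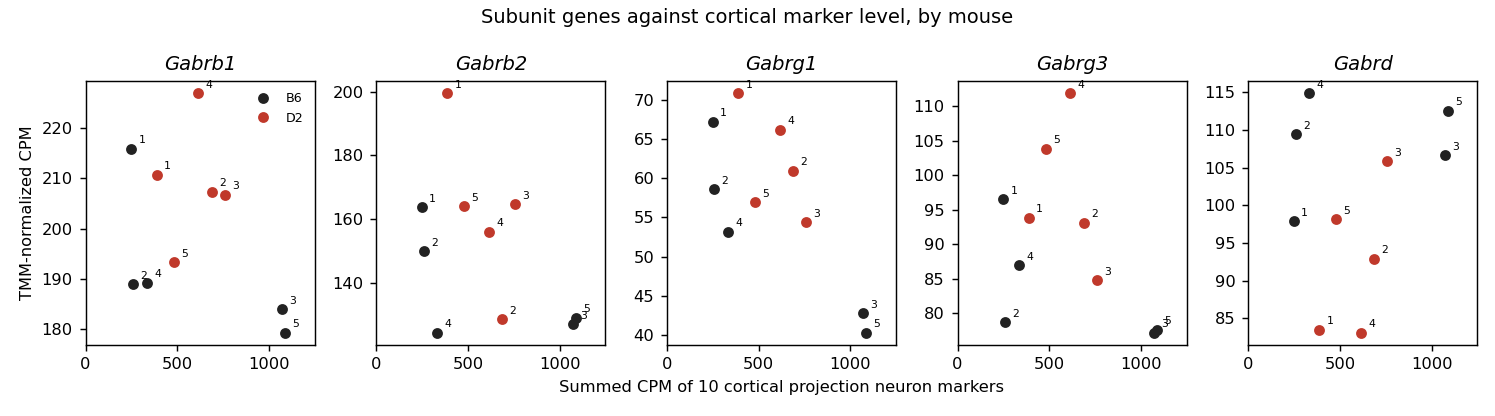
TMM-normalized CPM of each subunit gene (y axes, which do not start at 0) against the summed CPM of 10 cortical projection neuron markers (x axis) in each B6 (black) and D2 (red) mouse, labelled by number. B6 mice 3 and 5, at 1071 and 1087 summed CPM, have the lowest Gabrg1 of all mice, at 42.8 and 40.3 CPM.

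**Figure D3:**
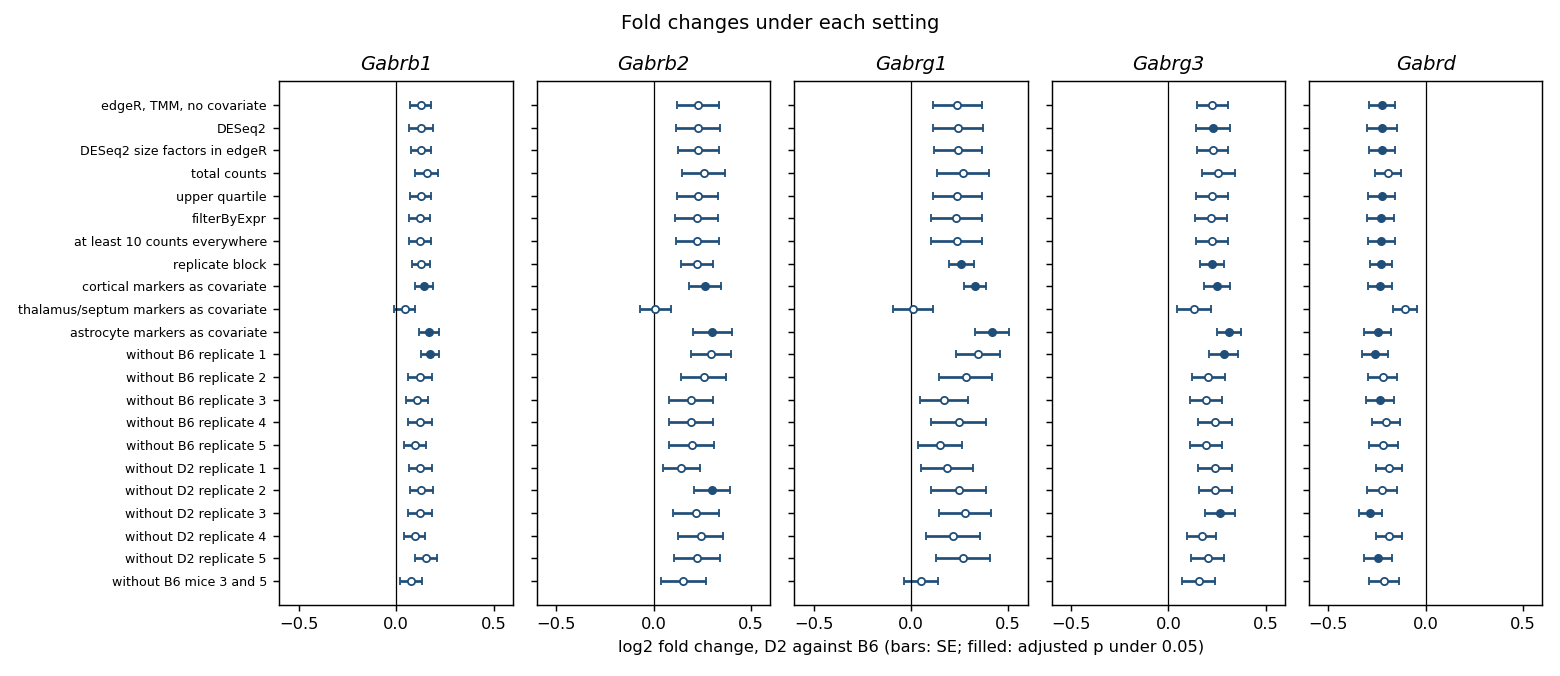
LFC, D2 against B6 (x axis), with its SE for each subunit gene under each setting tried (y axis), filled where padj was under 0.05. The points of Gabrd lie left of 0 and those of the other genes right of 0 in every setting, and which of them pass changes with the marker covariate and with the mouse left out.

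Ratios of genes within a library do not depend on scaling. The count ratio of Gabrb2 to Gabrb1 of B6 was 0.724 ± 0.054 (SD, n = 5) and that of D2 0.780 ± 0.13, a log2 difference of 0.095 that did not pass a two-sided exact permutation test (p = 0.444, adjusted over the 3 ratios 0.667). The ratio of Gabrg1 to Gabrg3 was 0.625 ± 0.094 in B6 and 0.638 ± 0.078 in D2 (exact permutation p = 0.802, adjusted 0.802). The delta to gamma1 ratio differed most between the strains. Gabrd to Gabrg1 was 1.46, 1.87, 2.49, 2.16 and 2.79 in the B6 mice and 1.18, 1.52, 1.95, 1.26 and 1.72 in the D2 mice, so 3 B6 mice were above all D2 mice, among them mice 3 and 5. The log2 difference was −0.49 (exact permutation p = 0.0635, adjusted 0.190), and the smallest p that the 252 assignments allow is 0.00794. The difference did not pass, and it was −0.62 without B6 mouse 1 and −0.58 without D2 mouse 3 (exact permutation p = 0.0317 and 0.0476, not adjusted over the 3 ratios). In the other 8 fits that left out a mouse it did not pass (exact permutation p up to 0.127). Without B6 mice 3 and 5 it was −0.27 (exact permutation p = 0.286, where the smallest possible is 0.0357). That of Gabrg1 to Gabrg3 then reversed to −0.10 and that of Gabrb2 to Gabrb1 was 0.071 (exact permutation p = 0.393 and 0.643).

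Levels can be set between genes only per length. Per kb of annotated exon, Gabrd was the highest of the 5 in B6 at 17.3 ± 1.05 CPM per kb, followed by Gabrb2 at 12.6 ± 1.57, Gabrb1 at 11.3 ± 0.843, Gabrg3 at 6.99 ± 0.702 and Gabrg1 at 5.16 ± 1.10 CPM per kb (SD, n = 5). Gabrb2 and Gabrb1, adjacent in this order, had close levels in B6, and their difference per length was not tested. In D2 Gabrd and Gabrb2 both had 14.8 CPM per kb (27.5 and 20.9 with the longest transcript as the length), followed by Gabrb1 at 12.4 ± 0.712, Gabrg3 at 8.17 ± 0.882 and Gabrg1 at 6.09 ± 0.660 CPM per kb. All 5 were well expressed in the tissue, between the 79.4th percentile of all genes (Gabrg1) and the 92.7th (Gabrd). This order is a description, since the exons counted per gene differ from the transcripts used in the cells.

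**Figure D4:**
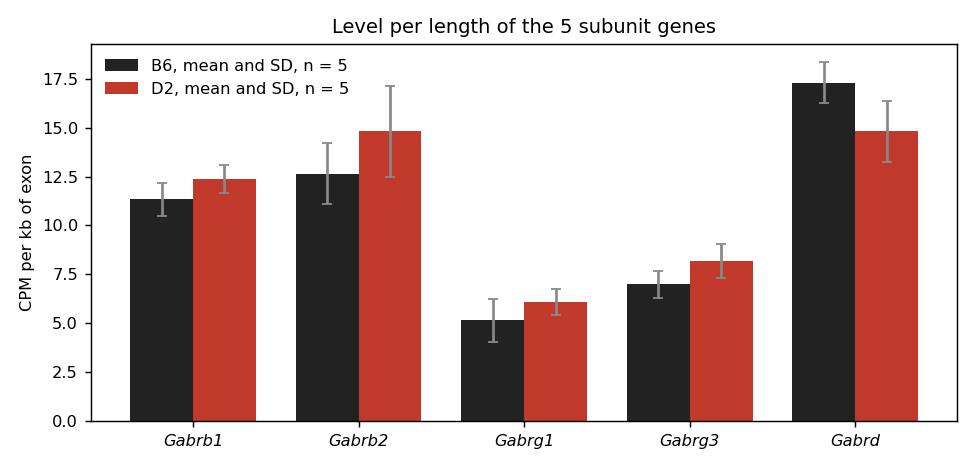
Mean level in TMM-normalized CPM per kb of annotated exon (y axis, from 0), with SD (n = 5), of the 5 subunit genes in B6 (black) and D2 (red). Gabrd is the highest in B6 at 17.3, Gabrd and Gabrb2 both reach 14.8 in D2, and Gabrg1 is the lowest in both strains.

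Within the gene clusters, the LFCs of neighboring genes differed in sign and size. Gabra2, the alpha2 gene between Gabrg1 and Gabrb1 and 115 kb from the former, rose from 84.4 ± 7.79 to 172 ± 8.18 CPM (LFC 1.03, SE 0.060, edgeR padj = 8.0e-08), whereas Gabrg1 and Gabrb1 on either side had LFCs of 0.24 and 0.13 that did not pass. Gabra4, which overlaps the 5′ end of Gabrb1 on the opposite strand by 267 bases, had an LFC of −0.12 (padj = 0.0909). In the cluster of Gabrg3, Gabra5 fell from 43.2 ± 2.25 to 33.99 ± 1.69 CPM (LFC −0.35, padj = 1.3e-04) and was opposite in sign to Gabrg3. In the cluster of Gabrb2, Gabra6, a gene of cerebellar granule cells, was near 0 in both strains.

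**Figure D5:**
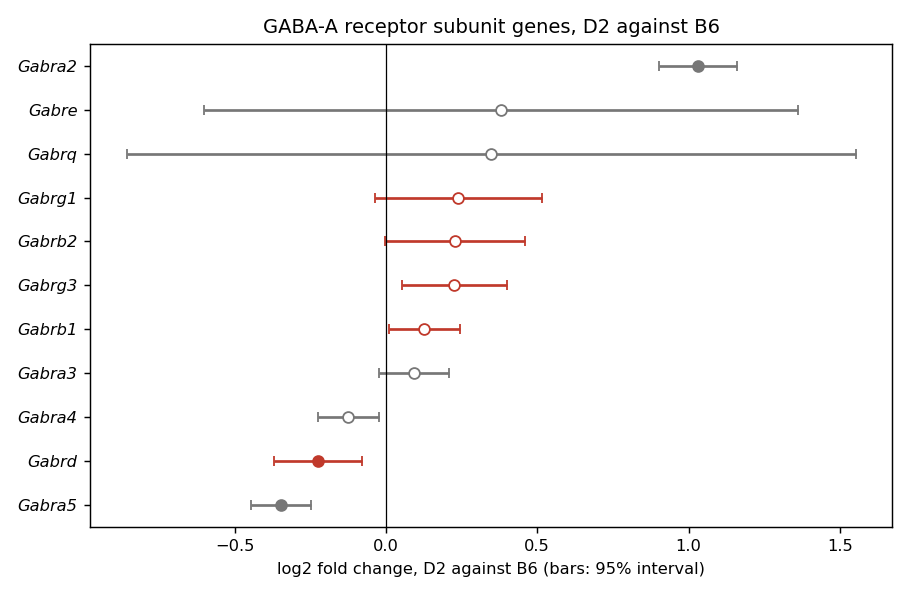
LFC, D2 against B6 (x axis), with its 95% interval for the GABA-A subunit genes reported here with a mean of at least 100 counts, filled where padj was under 0.05, in red for the 5 beta, gamma and delta genes described and in gray for the others. Gabra2 stands alone at 1.03, and the intervals of Gabre and Gabrq are the widest.

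Around each gene, the called genes within 1 Mb of its start were counted, against 18.3% called over all genes. They were 3 of 15 for Gabrb1, 0 of 8 for Gabrb2, 1 of 5 for Gabrg1 and 2 of 6 for Gabrg3. Gabrd had 35 of 80, with 13 higher and 22 lower in D2, in a gene-dense stretch of chromosome 4. The largest LFCs were −2.13 for Zar1 near Gabrb1, an oocyte gene with a mean of 38.5 counts, and −2.77 for Perm1 near Gabrd, a regulator of muscle mitochondria with a mean of 88.1 counts. Near Gabrg1 and Gabrg3 they were Gabra2 and Gabra5. Among the genes that overlap a member, Commd8 on the strand opposite to Gabrb1 had an LFC of 0.084 (padj = 0.104) and Gm9962, opposite to Gabrg3, an LFC of 0.10 (padj = 0.502). The strand setting of the counting was not given in the sources used here, so reads of these overlaps could not be assigned with certainty.

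Of 11 other receptor subunit genes reported here, 1 was called higher (Gabra2) and 2 lower (Gabra5 and Gabrr2), against 18.3% of all genes called, with a median LFC of 0.091 against 0.0036 over all genes. Gabrr2, a rho subunit, was chosen for naming after its values were seen and fell from 0.627 ± 0.095 to 0.319 ± 0.047 CPM (LFC −0.97, padj = 8.1e-04). Gabrq, the theta subunit, had 1.68 and 1.52 CPM in B6 mice 3 and 5 against 10.5 to 17.4 CPM in the other B6 mice and 7.09 to 17.3 CPM in D2. Gabre, the epsilon subunit, was low in the same mice, at 0.711 and 0.676 CPM against 2.68 to 4.39 CPM in the other B6 mice. Neither Gabrq nor Gabre was called (LFC 0.35 and 0.38, padj = 0.751 and 0.654), and both were named after their values were seen.

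Genes that hold GABA-A receptors at synapses gave 1 called higher and 3 called lower of 14 (28.6%, against 18.3% of all genes, with a median LFC of −0.017). Insyn2b, which encodes an inhibitory synapse protein, rose from 12.0 ± 3.37 to 27.4 ± 2.16 CPM (LFC 1.19, padj = 1.6e-04). Insyn1, also on this list, fell from 170 ± 24.4 to 142 ± 4.24 CPM (LFC −0.26, padj = 0.0432). Magi2, a scaffold protein, and Dag1, which encodes dystroglycan, fell by 0.13 and 0.084 on the log2 scale (padj = 0.0089 and 0.0435). The number of anchoring genes called was 2 without B6 mouse 3 or 4 or any of the D2 mice, 2 with total counts or thalamus and septum markers, and 6 with cortical or astrocyte markers. Of all genes, 18.3% were called with total counts, 13.1% with thalamus and septum markers, 26.3% with cortical markers and 25.3% with astrocyte markers. When a mouse was left out, 4636 to 5676 of all genes were called. Of 19 genes of assembly, trafficking and modulation none was called higher and 3 were called lower (15.8%, against 18.3% of all genes, with a median LFC of −0.041). The number called was 6 with astrocyte markers, 5 with cortical markers or without B6 mice 3 and 5, and 1 with thalamus and septum markers. The shares of all genes called in these fits were, in the same order, 25.3%, 26.3%, 19.2% and 13.1%. Dbi, which encodes the diazepam binding inhibitor, fell from 75.4 ± 6.72 to 57.4 ± 5.13 CPM (LFC −0.39, padj = 0.0015). Akap5, an anchor of protein kinase A, and Prkcb, a protein kinase C, had LFCs of −0.23 and −0.22 (padj = 0.0261 and 0.0083).

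For the chloride gradient, 1 of 11 genes was called (9.09%, against 18.3% of all genes, with a median LFC of 0.015). It was Car2, carbonic anhydrase 2, which rose from 144 ± 13.95 to 207 ± 18.0 CPM (LFC 0.52, padj = 1.9e-04). Oligodendrocytes express Car2, and of 8 oligodendrocyte markers 5 were called lower in D2 and 0 higher, and their part was not tested. The number of chloride genes called was 6 with astrocyte markers, 3 with cortical markers or without D2 mouse 1, and 2 with DESeq2, upper quartile scaling, either filter on low counts or without B6 mouse 1 or 4. Of all genes tested, 25.3% were called with astrocyte markers, 26.3% with cortical markers and 22.1% with DESeq2. Upper quartile scaling called 5505 genes, the filters 5287 and 4532, and the fits that left out a mouse 4636 to 5676. Of the 9 genes of neurosteroid synthesis 8 were in the table, and 3 were called (37.5%, against 18.3% of all genes). All 3 were lower in D2 (9.83% of all genes were called lower), although the median LFC was 0.013. They were Srd5a1, the 5-alpha reductase of progesterone, which fell from 7.15 ± 1.16 to 4.44 ± 0.221 CPM (LFC −0.69, padj = 2.9e-04), Akr1c14, which completes the synthesis of allopregnanolone (LFC −0.76, padj = 3.3e-04), and Cyp11a1, which makes pregnenolone from cholesterol (LFC −0.67, padj = 0.0018). The last pair were scarce, with 1.78 ± 0.218 CPM of Akr1c14 and 2.75 ± 0.459 CPM of Cyp11a1 in B6. Delta-containing receptors are a known target of these steroids. 

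Some genes varied over the 10 mice much as the subunit genes did. Likeness was measured as the root-mean-square difference of centered log2 CPM divided by the SD of the subunit gene, so that 0 is identity and 1 is what a flat gene gives, over 15327 candidate genes. Nearest to Gabrg1 were Cgn (0.208), which encodes the junction protein cingulin, and Gprasp2 (0.233), and both had their lowest levels in B6 mice 3 and 5. Nearest to Gabrd were Tesc (0.247) and Cracdl (0.258), both called lower in D2 (LFC −0.22 and −0.23, edgeR padj = 0.0170 and 0.0091). Likeness over all 10 mice takes in the strain difference and the low mice, so these shared features follow largely from the choice. Gabrb1 was most like Mdga2 (0.306) and Ice2 (0.310), Gabrb2 most like Cabp7 (0.341) and Magi3 (0.341), and Gabrg3 most like Lrrn3 (0.328) and Zfp521 (0.341).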

How the data were processed

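Per the labels and methods of the study, NAc tissue of 5 B6 and 5 D2 mice gave poly-A libraries. The authors trimmed reads with fastp, aligned them to GRCm39 with STAR (version 2.7.10b in the submitters' processing notes), sorted them with SAMtools 1.6, counted them with featureCounts and removed genes with a median of 0. The deposited table holds these raw counts. The counts were fitted with edgeR 4.0.16 in R 4.3.3 (TMM, quasi-likelihood F test, two-sided, strain as the factor), p-values adjusted (Benjamini-Hochberg) across the 29883 genes, threshold 0.05. DESeq2 1.42.0 was an alternative. The scripts were tested on simulated data. Ratios were tested by exact permutation over mice. Gene positions and exon lengths came from GENCODE vM39, which holds 29519 of the genes. The closest libraries, B6 mice 3 and 5, differed by more than sampling noise (mean chi-square 4.89 per gene, where 1 is sampling noise). Named genes were all members, the 2 most alike genes of each, up to 3 called genes per direction and list with a mean of at least 100 counts, subunit genes within 2 Mb, overlapping genes and the top called neighbor within 1 Mb. Members and lists were chosen with earlier results of these data known. Some other subunit genes are not reported here.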

Additional observations from a re-analysis of the deposited data

Results flagged for a closer look

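The CPM of Gabrb1 in B6 held a mouse far from the others. Mouse 1 had 216 CPM against 179 to 189 CPM in the other 4, and its gap to the nearest mouse was 0.729 of the range of the strain, above the 95% limit of Dixon's test for 5 values. Of the 16 groups tested in this way it was the only such group, and chance flags about 1 in 20. The same mouse had the highest Gabrb2, Gabrg1 and Gabrg3 of the B6 mice and the lowest Gabrd.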

How the results depend on the processing

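The sign of each of the 5 LFCs was kept under the 11 alternatives and the 10 fits that left out a mouse. With astrocyte markers as a covariate the LFCs were 0.17 (Gabrb1), 0.30 (Gabrb2), 0.42 (Gabrg1), 0.31 (Gabrg3) and −0.25 (Gabrd), and with cortical markers 0.14, 0.26, 0.33, 0.25 and −0.24, all called. With DESeq2 Gabrg3 was called (0.23). Gabrd was not called with total counts (−0.19), with thalamus and septum markers (−0.10) or without B6 mice 3 and 5 (−0.21). Leaving out a mouse gave 0.095 to 0.17 for Gabrb1, 0.14 to 0.30 for Gabrb2, 0.15 to 0.34 for Gabrg1, 0.17 to 0.28 for Gabrg3 (called without B6 mouse 1 and without D2 mouse 3) and −0.28 to −0.19 for Gabrd, and the causes were not tested. The log2 ratio differences ranged from 0.020 to 0.17 (Gabrb2 to Gabrb1), from −0.030 to 0.10 (Gabrg1 to Gabrg3, which reversed without B6 mouse 3, B6 mouse 5 or D2 mouse 1, and to −0.10 without both B6 mice 3 and 5) and from −0.62 to −0.38 (Gabrd to Gabrg1). Called genes numbered 4636 to 5676 when a mouse was left out, 3910 with thalamus and septum markers and 7845 with cortical markers.

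Replicate numbers are shared between the strains but did not pair the mice: same-numbered mice had correlations of −0.40 to 0.37 over 15388 genes, and 2 of 10 mice correlated best with their own number. With the replicate number as a block, 4731 genes were called, and Gabrg1 (0.26) and Gabrg3 (0.23) were called as well as Gabrd (−0.23).

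With the longest transcript as the length, levels in B6 were 13.9 (Gabrb1), 17.8 (Gabrb2), 8.38 (Gabrg1), 8.54 (Gabrg3) and 32.1 (Gabrd) CPM per kb, and on the TPM scale (each level as a share of the summed levels of all genes) they were 59.0, 65.8, 26.8, 36.3 and 89.9, in the same order (27.5 for Gabrd and 20.9 for Gabrb2 in D2 with the longest transcript). With total counts the share of called genes that were lower in D2 was 45.0% against 53.6%.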
